A study of Homo sapiens with 24 samples.

Results

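Labelled cytoplasmic RNA was compared between induced and uninduced U2OS cells over the first hour of a bromouridine chase. The comparison took 12 of the 24 libraries of the series, those at 0, 0.5 and 1 h, with 6 libraries in each arm and 2 for each arm and time. U2OS is an established human osteosarcoma line, and all cells belonged to a custom Tet-off double stable line that can express TOB2 S254D, in which aspartate stands in place of a serine. Uninduced cells grew with doxycycline, which keeps a Tet-off transgene silent, and induced cells grew without it, so that the drug and the transgene changed together. The promoter of the transgene and the number of clones behind the line were not given in the sources used here. All groups otherwise shared the same line, labelling and antibody step. The 2 replicates of a group are numbered in the labels, but nothing says that they came from separate cultures, so the p-values measure only the spread between these libraries, which may be technical.

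In a pulse-chase of this kind, cells build bromouridine into the RNA they make during the pulse, and an antibody then recovers that RNA from the cytoplasm at times after the label is withdrawn. TOB2 belongs to the BTG/TOB family of antiproliferative proteins, which bind the CCR4-NOT deadenylase and, in the case of the TOB proteins, the cytoplasmic poly(A)-binding protein, and so bring the enzyme that shortens poly(A) tails to mRNAs. A difference within the first hour was therefore measured on labelled RNA that had reached the cytoplasm, with less time for decay after the pulse than later in the chase. The age of the RNA at 0 h depends on the length of the pulse, and decay during the pulse was not measured. The 3 early times were compared together, with time as a factor, in all genes whose mean over the 24 libraries was 1 TPM or more. TPM corrects an abundance for the length of the transcript and makes all libraries sum to one total, so every difference is a difference in the share of labelled cytoplasmic RNA, and the depth of the libraries was unknown. Differences are given as induced minus uninduced on the log2(TPM + 1) scale, which understates the change of genes of low level, and a gene passed when its adjusted p from limma was under 0.05.

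The number of genes at 1 TPM or above was 12991 to 13757 per library. Replicate pairs had a Pearson's r of 0.97 to 0.981 across genes, and genes are no independent replicates. The noncoding RNAs RMRP, MIR6723 and RPPH1 together took 17.4% to 22.6% of a library in the uninduced arm and 16.1% to 27.5% in the induced arm. The induced replicate 2 libraries at 0 and 0.5 h stood apart with 27.5% each, and counts are therefore also given without them. Of 11 osteoblast lineage markers, IBSP, SPP1, COL1A2, DMP1 and SOST were listed at 0 in all 12 libraries, while COL1A1 lay between 5.56 and 12.8 TPM. The mesenchymal markers, led by VIM, summed to 553 to 752 TPM in uninduced and 568 to 771 TPM in induced libraries. Although the labels call the cells epithelial, EPCAM and KRT5 were listed at 0 and the 7 epithelial markers summed to at most 2.63 TPM. The 6 leukocyte and blood markers summed to 21.2 to 44.4 TPM in uninduced and 30.6 to 62.6 TPM in induced libraries, nearly all of it LYZ, with CD3E listed at 0. Their part in the results below was not tested.

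TOB2, the induced gene, was higher in each of the 6 induced libraries than in any uninduced library. In uninduced cells its level was 267 and 246 TPM at 0 h, 229 and 215 TPM at 0.5 h, and 246 and 203 TPM at 1 h in replicates 1 and 2. In induced cells the same series read 653 and 516 TPM, 628 and 499 TPM, and 725 and 584 TPM. The induced libraries of replicate 1 were above those of replicate 2 at each time, and the arms did not overlap. The early difference of TOB2 was 1.35 (SE 0.0956, adjusted p = 0.000103 with limma), and the medians of 237 and 606 TPM stood 2.55-fold apart. An exact two-sided permutation test that reassigned libraries between arms within each time gave p = 0.00926 over 216 arrangements, the smallest it allows. The table lists a single TOB2 transcript, so reads of the transgene and of the cell's own gene cannot be told apart.

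The other members of the family did not pass the threshold. TOB1, the closest relative of TOB2, lay between 240 and 260 TPM (median 250.3) in uninduced and between 243 and 316 TPM (median 281) in induced libraries, a difference of 0.16 (SE 0.0607, adjusted p = 0.151 with limma). BTG1 had a difference of 0.26 (adjusted p = 0.0914) and BTG2, a p53 target, of -0.29 (adjusted p = 0.0565). BTG2 was nonetheless lower in both induced libraries than in both uninduced libraries at each of the 3 times, as were 2.77% of all genes. The enzymes that TOB proteins bind differed little. None of the 12 CCR4-NOT subunits measured passed, with differences between -0.10 for CNOT11 and 0.19 for CNOT7, a catalytic subunit. CNOT7 lay between 70.0 and 105 TPM in uninduced and between 80.8 and 119 TPM in induced libraries. None of 15 other deadenylation and decapping factors and none of 6 poly(A)-binding proteins passed either. Of 21 factors that bind 3′ UTRs and steer decay, 1 was higher (4.76%, against 2.01% of all genes). This was CPEB4, a cytoplasmic polyadenylation element-binding protein. It went from a median of 17.9 TPM to 25.3 TPM (difference 0.47, SE 0.067, adjusted p = 0.00521 with limma), and its 6 induced libraries lay above all 6 uninduced ones.

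Across the 13416 genes tested, 511 (3.81%) differed between the arms in the first hour. These were 270 genes higher in induced cells (2.01%) and 241 lower (1.8%), so that 52.8% of the calls were higher, and 2908 genes had an unadjusted p under 0.05. In 648 genes (4.83%) both induced libraries exceeded both uninduced libraries at each of the 3 times, and in 371 (2.77%) both lay below. The median difference of all genes was 0.05. With median-of-ratios scaling the calls were 400 higher and 670 lower, so that 37.4% were higher, and with quantile normalization they were 513 and 636 (44.6%). With the 3 abundant RNAs taken out of the total the counts became 1226 and 331 (78.7%), and without the 2 induced libraries of high share they were 505 and 143 (77.9%). The balance of higher and lower genes thus moved with the scaling, and the counts moved with single libraries as well: without the uninduced replicate 2 library at 0.5 h they were 82 and 103. The higher count was 145 and 148 without uninduced replicate 1 at 0.5 and 1 h, 115 and 125 without uninduced replicate 2 at 0 and 1 h, 128 and 130 without induced replicate 1 at 0 and 0.5 h, and 414 and 142 without induced replicate 2 at 0 and 1 h. The lower count was 157 and 138 without uninduced replicate 1 at 0 and 0.5 h, 153 without uninduced replicate 2 at 0 h, and 155 and 152 without induced replicate 2 at 0.5 and 1 h. With any one of the 3 times left out, between 9 and 11 genes passed in all.

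Genes higher in induced cells were led by a small set that included mRNAs of membrane proteins and nuclear RNAs. CD55 encodes a membrane inhibitor of complement. Its levels were 148 to 174 TPM (median 165) in uninduced and 222 to 284 TPM (median 262) in induced libraries, without overlap, a difference of 0.67 (SE 0.0591, adjusted p = 0.000283 with limma). EMP1, an epithelial membrane protein, went from 19.3 to 33.0 TPM (median 27.6) in uninduced to 33.5 to 64.3 TPM (median 49.9) in induced libraries (difference 0.79, SE 0.0943, adjusted p = 0.00265). GPRC5A, an orphan G protein-coupled receptor induced by retinoic acid, lay between 300.2 and 515 TPM in uninduced and between 545 and 756 TPM in induced libraries (difference 0.66, SE 0.126, adjusted p = 0.0158). The arms of both genes were fully apart, but the GPRC5A call was lost with median-of-ratios scaling and without the 2 libraries of high share. OLR1, a scavenger receptor for oxidized low-density lipoprotein, had medians of 22.9 and 36.1 TPM (difference 0.74, SE 0.109, adjusted p = 0.00588). All 6 induced OLR1 values lay above all 6 uninduced ones.

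A weakly expressed gene was also among the larger differences. SLITRK5, a neuronal membrane protein, had medians of 5.34 and 9.24 TPM (difference 0.67, SE 0.0894, adjusted p = 0.0044), and all 6 induced libraries lay above all 6 uninduced ones. HNRNPU-AS1, annotated antisense to HNRNPU, had medians of 19.8 and 32.1 TPM (difference 0.65, adjusted p = 0.0292). Whether the counting used the strand is not stated, so its reads cannot be told apart from those of its antisense partner. The HNRNPU-AS1 call was lost without any of 7 libraries, all of uninduced replicate 2 and induced replicate 1 and the uninduced replicate 1 library at 1 h, whereas those of CD55, EMP1, OLR1 and SLITRK5 were kept in all 12.

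**Figure D1:**
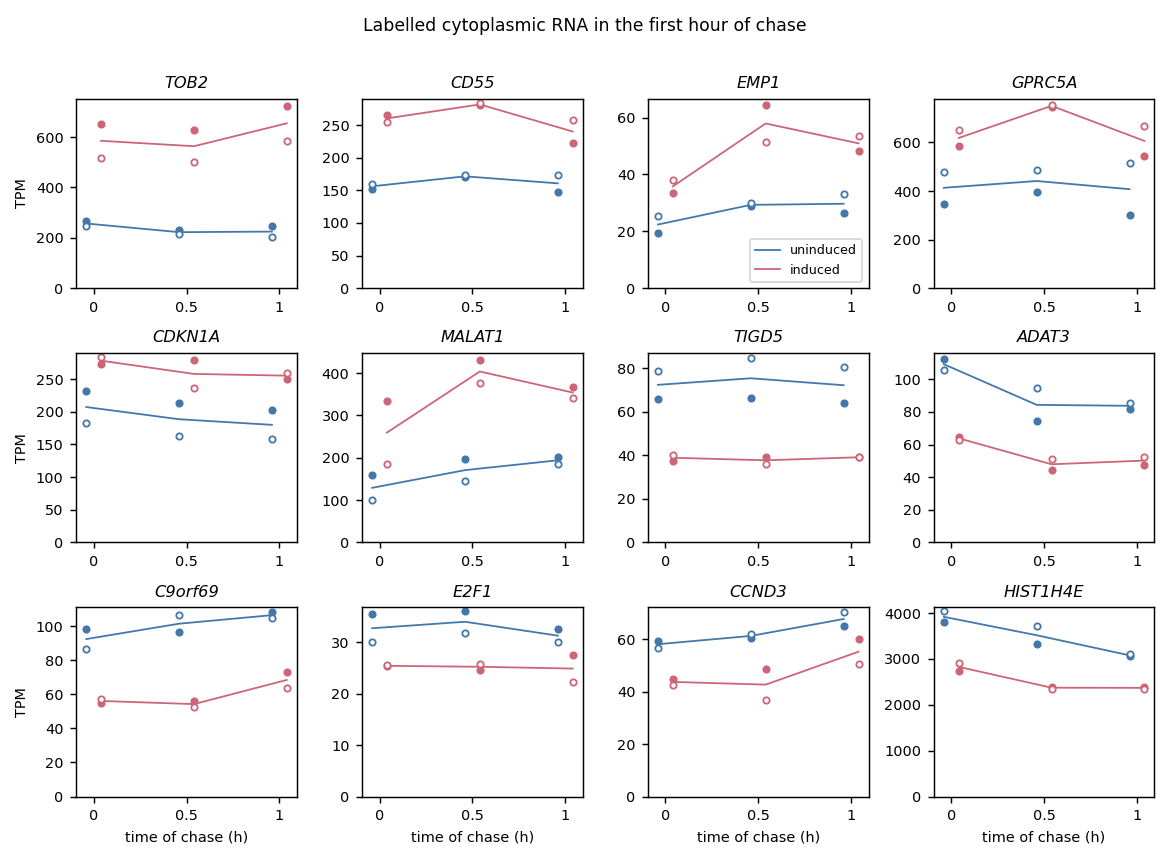
TPM of 12 genes at 0, 0.5 and 1 h of chase. Filled circles are replicate 1, open circles replicate 2, and lines join the means of the 2 libraries of each arm, with each vertical axis starting at 0. TOB2, CD55, EMP1, GPRC5A and CDKN1A lie higher in all 6 induced libraries than in all 6 uninduced ones, and TIGD5, ADAT3, C9orf69, E2F1 and HIST1H4E lie lower. MALAT1 and CCND3 are separated at each time but overlap across times.

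A pair of RNAs that normally stay in the nucleus were among those higher. MALAT1, a long noncoding RNA of nuclear speckles, lay at 159 and 99.2 TPM at 0 h, 196 and 145 TPM at 0.5 h, and 202 and 186 TPM at 1 h in uninduced cells. In induced cells it lay at 334 and 186 TPM, 431 and 377 TPM, and 367 and 341 TPM. Its difference was 1.03 (SE 0.153, adjusted p = 0.00611 with limma), after TOB2 the largest among the higher genes that the rule named at 5 TPM or more. NEAT1, the RNA scaffold of paraspeckles, had medians of 258 and 431 TPM (difference 0.73, SE 0.102, adjusted p = 0.00483). Both stood above the uninduced pair at each time. Of the 21 nuclear-retained and long noncoding RNAs on the list these 2 passed, both higher, and the median of the list was 0.04, close to the 0.05 of all genes. Among all 1005 genes that RefSeq annotates as long noncoding, 18 were higher (1.79%, against 2.01% of all genes) and 2 lower, with a median difference of 0.17. Of 318 small noncoding RNAs, 3 were higher (0.943%, below the 2.01% of all genes) and none lower. They were SCARNA6, a Cajal body RNA that guides RNA modification (medians 25.8 and 40.8 TPM, difference 0.78), SCARNA5 of the same class (difference 0.64) and MIR6516 (difference 0.65). The MIR6516 call was lost without any of 9 libraries, with median-of-ratios scaling and without the 2 libraries of high share, and with no filter on low values none of the 3 passed. The SCARNA5 and SCARNA6 calls were each lost without any of 5 libraries. The libraries were made from cytoplasmic extracts, and the part of these nuclear RNAs in the other results was not tested.

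Genes lower in induced cells differed as much as those higher, and several had very small errors. TIGD5, a gene derived from a transposase, lay between 63.9 and 84.4 TPM (median 72.5) in uninduced and between 36.0 and 40.2 TPM (median 39.0) in induced libraries, a difference of -0.90 (SE 0.0811, adjusted p = 0.000292 with limma). ADAT3, a subunit of the deaminase that makes inosine in tRNA anticodons, lay between 74.2 and 113 TPM in uninduced and between 44.6 and 64.8 TPM in induced libraries (difference -0.76, SE 0.0671, adjusted p = 0.000283). C9orf69, now named TMEM250, lay between 86.6 and 108 TPM against 52.3 and 73.0 TPM (difference -0.74, SE 0.0651, adjusted p = 0.000283). In each of these 3 genes the highest induced library was below the lowest uninduced one. LENG9 (difference -0.77), MAFA, a transcription factor of the large MAF group (-0.83), TPGS1, a subunit of the tubulin polyglutamylase (-0.71), and PROB1 (-0.64) were fully apart as well. TST, the mitochondrial thiosulfate sulfurtransferase, had medians of 26.0 and 16.1 TPM (difference -0.64), and RASSF7, of the Ras association domain family, of 31.6 and 19.3 TPM (-0.62).

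The largest of the lower differences was the least certain. NBL1, a secreted BMP antagonist of the DAN family, lay between 4.19 and 12.3 TPM in uninduced libraries and between 0.01 and 6.04 TPM in induced ones (difference -1.31, SE 0.322, adjusted p = 0.0428). The value of 0.01 TPM came from the induced replicate 2 library at 1 h, and the call was lost when any one of the 12 libraries was left out. GCHFR, the feedback regulator of GTP cyclohydrolase 1 (difference -0.59), and WWOX, an oxidoreductase encoded at a fragile site (-0.55), each lost their call without any of 10 libraries. TIGD5, ADAT3 and C9orf69 stayed past the threshold without each of the 12 libraries and without each of the 3 times, as did TOB2 and CD55.

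The replication-dependent histone genes made up the largest group among the genes that were lower. Their mRNAs are made in S phase, end in a stem-loop in place of a poly(A) tail, and are degraded when DNA synthesis stops. Of 61 measured, 45 were lower (73.8%, against 1.8% of all genes) and none was higher, with a median difference of -0.38. They accounted for 45 of the 241 lower genes. Summed over the class, histone RNA made up 7.10% to 11.2% of an uninduced library (median 9.09%) and 5.66% to 8.76% of an induced library (median 6.38%). That share became smaller from 0 to 1 h in both arms, and at each time both induced libraries lay below both uninduced ones. Of the 61 genes, 43 were lower in both induced libraries at each of the 3 times, against 2.77% of all genes. In the series with replicate number 1 the median difference was -0.29, with 56 of 61 genes below 0, and in that with number 2 it was -0.49, with 59 below 0. In such bulk samples fewer cells of a type, here cells in S phase, and less RNA per cell cannot be told apart.

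The promoters of 3 of these genes are shown as examples, because the genes of a class moved together. Each is the 250 bases before the annotated start in RefSeq, build GRCh38.p14, 5′ to 3′ on the strand of the gene. Capitals mark the TATA element TATAAA, the box CCAAT, the octamer ATTTGCAT and the element TGACGTCA on either strand, where neighbouring matches may overlap. HIST1H2BO, now named H2BC17, lies at chr6:27893175-27893424 on the plus strand, HIST1H2BJ (H2BC11) at chr6:27132796-27133045 on the minus strand, and HIST1H4E (H4C5) at chr6:26204360-26204609 on the plus strand.
HIST1H2BO: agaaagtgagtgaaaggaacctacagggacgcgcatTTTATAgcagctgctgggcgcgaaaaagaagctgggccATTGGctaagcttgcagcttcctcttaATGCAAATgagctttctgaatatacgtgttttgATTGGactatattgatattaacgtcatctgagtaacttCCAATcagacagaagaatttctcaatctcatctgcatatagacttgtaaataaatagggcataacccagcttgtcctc
HIST1H2BJ: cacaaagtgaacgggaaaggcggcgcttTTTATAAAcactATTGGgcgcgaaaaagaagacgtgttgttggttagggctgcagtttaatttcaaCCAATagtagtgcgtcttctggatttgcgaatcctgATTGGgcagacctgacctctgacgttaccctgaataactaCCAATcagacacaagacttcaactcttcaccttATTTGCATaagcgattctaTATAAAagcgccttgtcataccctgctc
HIST1H4E: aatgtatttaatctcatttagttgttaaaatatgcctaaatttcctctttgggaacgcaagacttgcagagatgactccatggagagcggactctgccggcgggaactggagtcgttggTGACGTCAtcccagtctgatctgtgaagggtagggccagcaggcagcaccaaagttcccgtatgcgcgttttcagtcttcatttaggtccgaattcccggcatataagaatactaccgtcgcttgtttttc
The octamer, a binding element for POU factors such as OCT1, was found in 13 of 17 H2B promoters in the table (76.5%), against 1.63% of all 35116 promoters of the same length. CCAAT was found in all 17 H2B promoters and in 32% of all promoters. TATAAA was found in 66.1% of the promoters of the histone list and in 10.7% of all. In HIST1H2BO its match lay on the opposite strand, 214 bases before the start. HIST1H4E held none of the first 3 elements in this window but a single TGACGTCA, which 1.65% of all promoters held. A match describes letters only.

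Most measured genes of the 4 core histone classes were lower. HIST1H2BO, which encodes an H2B, lay at 2059 and 2163 TPM at 0 h, 1730 and 1900 TPM at 0.5 h, and 1511 and 1501 TPM at 1 h in uninduced cells. In induced cells it lay at 1664 and 1400 TPM, 1307 and 1050.1 TPM, and 1153 and 1178 TPM. The difference was -0.49 (SE 0.0707, adjusted p = 0.00528 with limma). HIST1H2BJ, with its octamer close to the start, had medians of 1747 and 1161 TPM (difference -0.43, SE 0.0644, adjusted p = 0.00666). HIST1H4E, whose promoter lacks the octamer in this window, had medians of 3518 and 2389.7 TPM and no overlap between the arms (difference -0.47, SE 0.0513, adjusted p = 0.0013). H4 genes passed in 11 of 13 cases with a median difference of -0.45, H3 genes in 7 of 11 (-0.41), H2A genes in 14 of 16 (-0.38), H2B genes in 12 of 18 (-0.32) and H1 genes in 1 of 3 (-0.27). Whether the classes differ from one another was not tested. Among the largest differences were HIST1H4J at -0.53, HIST1H2AG at -0.52 and HIST1H3H at -0.51. The linker histone gene HIST1H1B had a difference of -0.36 (adjusted p = 0.0375), a call that was lost without any of 9 libraries and without the 2 of high share.

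Of the 16 histone genes that did not pass, 14 nonetheless had a difference below 0. HIST1H2BB, HIST1H2BE and HIST1H4D had means of about 2 TPM, with differences of -0.05, -0.13 and 0.32. HIST1H1C, at a mean of 1811 TPM, had a difference of -0.27 (adjusted p = 0.0724). Of the list, 6 genes share identical values with another, such as the pair HIST2H4A and HIST2H4B, and near-identical copies elsewhere in the clusters can trade reads, so the classes are firmer than single genes. Of 11 other histone genes outside that list, a set chosen after the values were seen, 1 passed, and it was lower. This was H2AFX, whose product marks DNA breaks when phosphorylated, with medians of 313 and 228 TPM (difference -0.46, SE 0.0742, adjusted p = 0.0076 with limma). Whether its mRNA follows replication in these cells was not tested. Of the 11, 3 were lower in both induced libraries at each of the 3 times, against 2.77% of all genes. Their differences ranged from -2.54 to 0.04 with a median of -0.09. CENPA (-0.33, adjusted p = 0.0576 with limma) and H2AFZ (-0.23, adjusted p = 0.061) did not pass. H3F3B, which encodes the replacement histone H3.3, had a difference of -0.09 (adjusted p = 0.418), and H3F3A one of -2.54 with a large error (SE 1.43, adjusted p = 0.328). The histone count was 33 without the 2 libraries of high share, 28 without the uninduced replicate 2 library at 0.5 h, and 0 when any one of the 3 times was left out, although the median then stayed between -0.46 and -0.30.

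**Figure D2:**
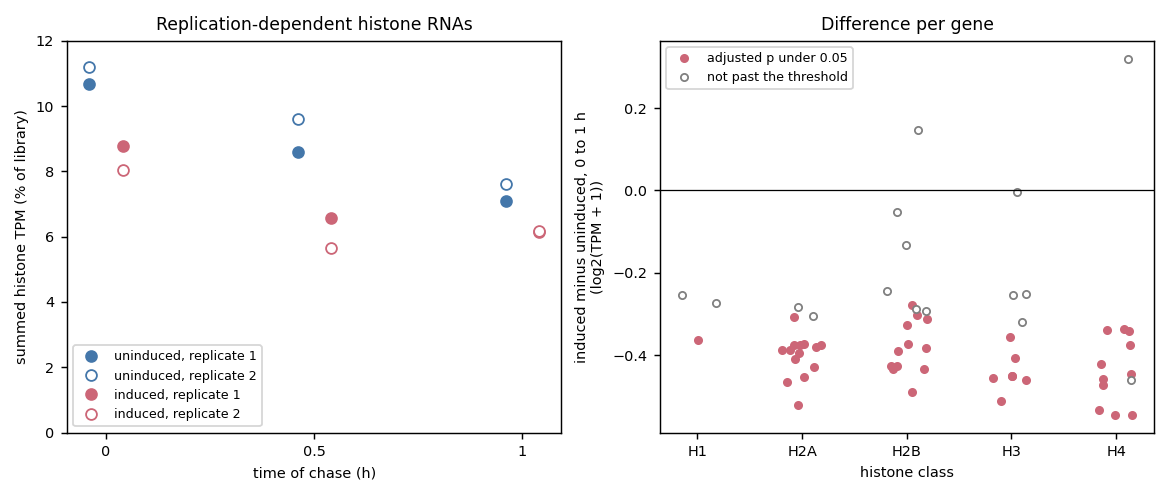
Left, the summed TPM of the replication-dependent histone genes as a percentage of each library, by time of chase, with filled circles for replicate 1 and open circles for replicate 2. The induced libraries lie at 5.66% to 8.76% and the uninduced ones at 7.10% to 11.2%, and the arms are apart at each time. Right, the early difference of each of 61 genes by class, with filled points for the 45 past the threshold, all below 0.

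Few genes of the other cell cycle lists passed. Of 44 genes of the G1/S transition and DNA replication, 4 were lower and none higher (9.09%, against 1.8% of all genes), with a median difference of -0.08. CCND3, which encodes cyclin D3, had medians of 61.3 and 46.7 TPM (difference -0.41, SE 0.0772, adjusted p = 0.0156 with limma). E2F1, the transcription factor that drives S-phase genes, lay between 30.0 and 36.1 TPM in uninduced and between 22.2 and 27.6 TPM in induced libraries, without overlap (difference -0.36, SE 0.0717, adjusted p = 0.019). FEN1, a flap endonuclease of lagging strand synthesis, had a difference of -0.28 and PCNA, the sliding clamp, of -0.25. The other 40 genes of the list did not pass. Of 41 mitotic genes, 1 was lower (2.44%, near the 1.8% of all genes), BIRC5, which encodes survivin (medians 123 and 106.5 TPM, difference -0.29), and the median was -0.10. Quantile normalization gave 11 mitotic and 8 G1/S genes lower, median-of-ratios scaling 8 and 10, and the total without the 3 abundant RNAs 3 and 6. Lower genes overall rose too, from 241 in the main fit to 636, 670 and 331 in these settings. Without the 2 induced libraries of high share the median of the G1/S list was 0.02, with 3 genes lower, and that of the mitotic list was -0.04. The PCNA call was lost without any of 10 libraries, FEN1 without any of 5 and BIRC5 without any of the 3 uninduced replicate 2 libraries. At 0.5 h, E2F1 lost its call without uninduced replicate 1 and CCND3 without uninduced replicate 2.

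CDKN1A, which encodes the cyclin-dependent kinase inhibitor p21, was higher in all 6 induced libraries. It lay between 158 and 232 TPM (median 192) in uninduced and between 237 and 283 TPM (median 266) in induced libraries, a difference of 0.47 (SE 0.0891, adjusted p = 0.0156 with limma). The difference of its most abundant transcript alone was 0.05 (SE 0.314), which did not pass. Of 25 p53 targets measured, CDKN1A was higher (4%, against 2.01% of all genes), AEN, an apoptosis-enhancing nuclease, was lower (difference -0.22, adjusted p = 0.039), and 23 did not pass. The AEN call was lost without any of 10 libraries, with median-of-ratios scaling and without the 2 libraries of high share. The number of p53 targets higher was 4 with quantile normalization, 7 without the 3 abundant RNAs and 4 without the libraries of high share. In these settings the higher count of all genes also rose, from 270 to 513, 1226 and 505. The median of the list was -0.01, and its sign changed with the scaling.

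Secreted factors and inflammatory regulators included 2 further genes that were higher. LIF, an interleukin-6 family cytokine, had medians of 54.2 and 76.1 TPM (difference 0.44, SE 0.0565, adjusted p = 0.00391 with limma). IL11, of the same family, lay between 28.8 and 38.0 TPM in uninduced and between 39.7 and 55.0 TPM in induced libraries (difference 0.49, SE 0.0798, adjusted p = 0.00769). They were the 2 of 23 NF-kB targets and inhibitors that passed, both higher (8.7%, against 2.01% of all genes), with a list median of 0.16. Between 3 and 6 were higher under the 3 other scalings, where the higher count of all genes went from 270 to between 400 and 1226. TNFAIP3, the NF-kB inhibitor A20, had a difference of 0.41 that did not pass (adjusted p = 0.0587). Of 52 immediate early genes, which respond to growth signals without new protein synthesis, 2 were higher (3.85%, against 2.01% of all genes). IER3 had medians of 2445 and 2851 TPM (difference 0.30, SE 0.0609, adjusted p = 0.0222) and BHLHE40, a transcriptional repressor, of 741 and 1047 TPM (difference 0.45, SE 0.0702, adjusted p = 0.00701). The median of the immediate early list was 0.09. The count was 7 with quantile normalization, 8 without the 3 abundant RNAs and 1 with median-of-ratios scaling, where the IER3 call was lost. For all genes the higher count in these settings was 513, 1226 and 400, against 270 in the main fit. TOB proteins are also known as inhibitors of BMP signalling. In the list of BMP and TGF-beta feedback 1 of 16 genes passed, higher (6.25%, against 2.01% of all genes). SMAD6, an inhibitory SMAD, had a difference of -0.29 (adjusted p = 0.0516) and BMP2 of 0.22 (adjusted p = 0.0768), although all 6 induced BMP2 values were above all 6 uninduced ones. Of the 16 genes, 2 were higher in both induced libraries at each of the 3 times, against 4.83% of all genes.

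Genes of lipid and membrane compartments were higher in small numbers. Of 24 genes of cholesterol synthesis and its control, 3 were higher and none lower (12.5%, against 2.01% of all genes), and the list had the largest positive median among the lists of at least 12 genes, 0.23. CYP51A1, the sterol 14-alpha demethylase, had medians of 111 and 131 TPM (difference 0.27, adjusted p = 0.0197), and was higher in both induced libraries at each time. Without the 2 libraries of high share 1 gene of the list passed, and with median-of-ratios scaling 2 did, with medians of 0.17 in both cases. CYP51A1 was not among the 2, and its call was also lost without uninduced replicate 2 at 0 or 0.5 h. Among 21 ER chaperones and unfolded protein response genes, HSPA5, the chaperone BiP, and DNAJC3, an inhibitor of eIF2-alpha kinases, were higher (differences 0.35 and 0.27). They are 9.52% of the list, against 2.01% of all genes. With median-of-ratios scaling neither passed, and the calls were lost without any of 8 libraries for HSPA5 and 6 for DNAJC3. Among 21 extracellular matrix genes PLOD2, a collagen lysyl hydroxylase (0.37), and TIMP1, an inhibitor of metalloproteinases (0.31), were higher, and among 21 lysosomal genes 2 were higher, LAMP2, a lysosomal membrane protein (0.32), among them. Each count is 9.52% of its list, against 2.01% of all genes. The PLOD2 call was kept without each of the 12 libraries, that of TIMP1 was lost without any of 11 libraries, under 2 other scalings and without the 2 of high share, and that of LAMP2 without any of 10. In 4 other lists 1 gene each passed, higher, with differences between 0.23 and 0.34. AXL, a receptor tyrosine kinase, was the 1 of 20 YAP and SRF targets (5%), against 2.01% of all genes. MXI1, an antagonist of MYC, was the 1 of 18 hypoxia genes (5.56%), and IFIT1 the 1 of 23 interferon-stimulated genes (4.35%). S100A4, a calcium-binding protein used here as a mesenchymal marker, was the 1 of 4 such markers tested (25%). These calls were lost without any of 7 libraries for AXL and S100A4, 9 for MXI1 and 10 for IFIT1. MXI1 also lost its call under 2 other scalings, S100A4 and IFIT1 under 1, and AXL without the 2 libraries of high share.

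Few genes of protein and energy production passed. Of 83 cytosolic ribosomal proteins 1 was lower, RPL13 (medians 304 and 261 TPM, difference -0.25, adjusted p = 0.0364 with limma), which is 1.2% against 1.8% of all genes. The median of the list was nonetheless -0.13, the lowest after the histones, and 2 of the 83 genes lay above the median of all genes. With quantile normalization that median was -0.02, and with median-of-ratios scaling it was -0.19 with 8 genes lower. Without the 3 abundant RNAs 7 were lower, and without the 2 libraries of high share none was. The lower count of all genes was 670 with median-of-ratios scaling, against 241 in the main fit. It was 331 without the 3 RNAs and 143 without the 2 libraries. The RPL13 call was lost without any of 10 libraries. Of 76 mitochondrial ribosomal proteins, MRPS12 (-0.29) and MRPL41 (-0.26) were lower (2.63%, against 1.8% of all genes). Each call was lost without any of 10 libraries and without the 2 of high share, MRPL41 was lost under all 3 other scalings, and median-of-ratios scaling gave 7 lower. None of 75 genes of oxidative phosphorylation, 36 of the proteasome, 32 translation factors, 29 of the integrated stress response, 18 heat shock proteins or 17 glycolytic enzymes passed. Within these lists ATF4, the transcription factor of the integrated stress response, lay between 3315 and 3466 TPM in uninduced and between 2640.2 and 3287 TPM in induced libraries. The arms did not overlap, but the difference of -0.15 did not pass (adjusted p = 0.108 with limma).

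Zinc finger genes passed in both directions, in proportions that moved with the scaling. Of 392 C2H2 zinc finger genes with ZNF symbols, most of them transcription factors, 17 were lower (4.34%, against 1.8% of all genes) and 4 higher (1.02%, against 2.01%). ZNF668 lay between 137 and 167 TPM in uninduced and between 97.6 and 126 TPM in induced libraries, without overlap (difference -0.39, SE 0.0718, adjusted p = 0.0145 with limma). ZNF787 had medians of 103 and 80.0 TPM (difference -0.38), ZNF646 of 128 and 105 TPM (-0.31) and ZNF579 of 64.5 and 44.6 TPM (-0.54). ZNF837, at medians of 6.02 and 3.12 TPM, had the largest difference, -0.78. In the other direction ZNF217, which is amplified in several cancers, lay between 53.2 and 67.2 TPM in uninduced and between 76.0 and 88.6 TPM in induced libraries (difference 0.42, SE 0.0677, adjusted p = 0.00747), and ZNF527, ZNF665 and ZNF669 were higher, with induced medians between 10.7 and 18.7 TPM. Calls were lost without any of 8 libraries for ZNF527, 10 for ZNF665 and 9 for ZNF669, whereas that of ZNF217 was kept without each of the 12. The median of the list was 0.00, and without the 2 libraries of high share 12 genes were higher and 11 lower. Without the 3 abundant RNAs 20 were higher and 23 lower, with median-of-ratios scaling 7 and 42, and with quantile normalization 7 and 46. Counts over all genes moved as well. They were 505 higher and 143 lower without the 2 libraries, and 1226 and 331 of 13734 genes without the 3 RNAs. With median-of-ratios scaling they were 400 and 670 of 13416 genes, and with quantile normalization 513 and 636.

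**Figure D3:**
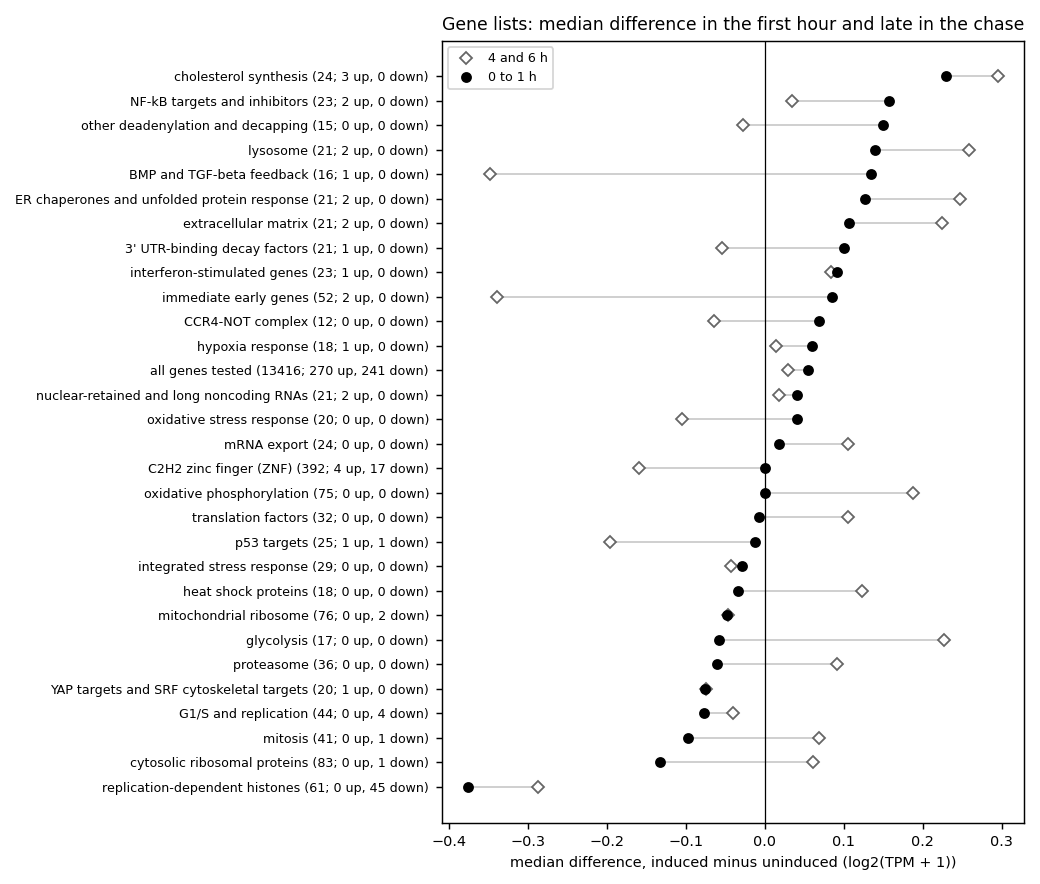
Median difference between the arms for each list of at least 12 tested genes, in the first hour (filled circles) and at 4 and 6 h (open diamonds), on the log2(TPM + 1) scale. Labels give the number of genes tested and those past the threshold in the first hour. The histone list lies farthest to the left in the first hour, at -0.38, with 45 of 61 genes lower.

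Genes that were lower spanned less of the genome than genes that were higher. RefSeq, build GRCh38.p14, gave a span from start to end for 99.6% of the genes tested, with a median of 26306 bases. The 241 lower genes had a median span of 4916 bases, and 50.2% of them spanned under 5000 bases, against 14.1% of all genes. The 270 higher genes had a median of 39289 bases, and 6.69% of them were under 5000. Without the histones, whose median span was 494 bases, the lower genes had a median of 6472 bases and 41.3% were under 5000. With the histones left out and the genes divided by span into 5 bins of equal size, 3.98% of the shortest and 0.301% of the longest bin were lower, while 1.32% and 2.97% were higher. From the shortest to the longest bin the median difference went from 0.01 to 0.13 in replicate 1 and from -0.02 to 0.05 in replicate 2. The lower genes were also more abundant, with a median level of 80.1 TPM, or 54.4 TPM without the histones, against 28.6 TPM for the higher genes and 16.1 TPM for all. Genes of higher level have smaller errors on this scale, and the part of level and of effective length in these counts was not tested.

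**Figure D4:**
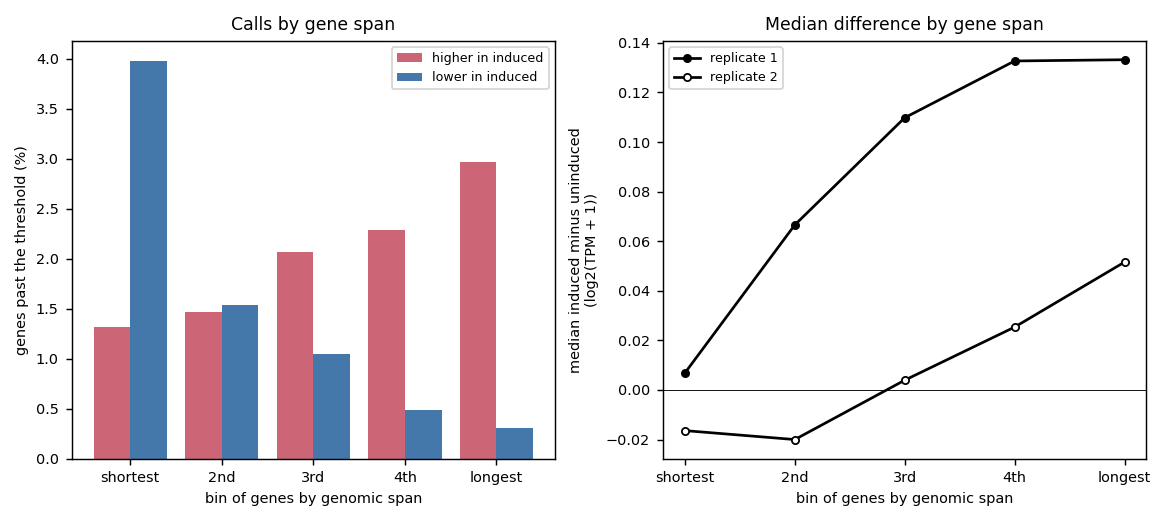
Left, the percentage of genes in each of 5 bins by genomic span that were higher (red) or lower (blue) in induced cells, histones left out, where lower calls go from 3.98% in the shortest to 0.301% in the longest bin and higher calls from 1.32% to 2.97%. Right, the median difference in each bin for the libraries with replicate number 1 (filled) and 2 (open), on a vertical axis that does not start at 0.

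At single times few genes passed, with 2 libraries in each arm. At 0 h 2 genes passed (0.0149%), with 630 at an unadjusted p under 0.05. At 0.5 h 1 passed (0.00745%), with 1144, and at 1 h 2 passed (0.0149%), with 676. These were TOB2 at 1 h (difference 1.54) and 4 short or repeated genes that are named because they passed, chosen after their values were seen. MIR593 and MIR573 were listed at 0 in all uninduced libraries and had values in the induced pair of a single time, 10.1 and 5.37 TPM at 0 h for MIR593 and 23.1 and 8.42 TPM at 0.5 h for MIR573. GAGE2E, one of a family of near-identical genes, was listed at 0 in all uninduced libraries and at 9.55 and 4.99 TPM in the induced ones at 1 h, with 4.57 and 3.30 TPM at 0 h but 0 at 0.5 h, and it also passed over the 3 times together (difference 1.76, adjusted p = 0.0318). MIR6075 was listed at 0 in both induced libraries at 0 h, against 15.4 and 7.26 TPM in the uninduced ones. TPM of RNAs this short rests on very small effective lengths. Across the 3 times the median difference of the histone list was -0.36, -0.55 and -0.23.

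How the difference between the arms moved from 0 to 1 h was tested directly. A single gene passed (0.00745%), MIR6075, with 107 genes at an unadjusted p under 0.05. For TOB2 the differences at 0, 0.5 and 1 h were 1.18, 1.33 and 1.54, and the change of 0.36 (SE 0.232) did not pass. No histone gene passed either.

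The first hour was then set beside 4 and 6 h, whose 8 libraries the early comparison does not use. At 4 and 6 h 2170 genes passed (16.2%), 562 higher (4.19%) and 1608 lower (12%), and without the uninduced replicate 1 library at 6 h 1440 passed. Of the 270 genes higher in the first hour, 86 were also higher late, which is 31.9% of the early and 15.3% of the late genes, and 10 were lower late. Those 10 were CYB561D1, GATAD2B, GNAQ, GXYLT1, IRF2BPL, KIAA0040, NFIB, PEX13, SAMD8 and TGFBR3. Of the 241 genes lower in the first hour, 191 were also lower late, which is 79.3% of the early and 11.9% of the late genes, and none was higher late. The early lower genes had a median difference of -0.38 early and -0.50 late, and the early higher genes of 0.38 early and 0.20 late. These shares compare calls, and the difference between both windows was tested gene by gene.

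That test, late minus early, passed in 768 genes (5.72%), 34 toward higher (0.253%) and 734 toward lower (5.47%). The count for the late minus early difference was 486 without the uninduced replicate 1 library at 6 h and 493 without the induced replicate 1 library at 4 h. TOB2 moved from an early difference of 1.35 to a late one of 2.25 (late minus early 0.90, SE 0.149, adjusted p = 0.00182 with limma). ID3, which holds basic helix-loop-helix factors off DNA, had an early difference of 0.12 (adjusted p = 0.342), with 1081 to 1354 TPM in uninduced and 1118 to 1382 TPM in induced libraries. At 6 h it lay at 240 and 193 TPM in uninduced against 65.4 and 69.3 TPM in induced cells (late minus early -1.58, SE 0.0977). CITED2, a coregulator that binds CBP and p300, went from an early difference of 0.32 (adjusted p = 0.134) to -0.87 late, and CITED4, its relative, from -0.44 (adjusted p = 0.0733) to -1.74. LINC00920 went from 0.46 (adjusted p = 0.083) to -0.77. Of the 52 immediate early genes 25 were lower late, against 12% of all genes. In this test 19 of them passed toward lower, as did 7 of the 16 genes of BMP and TGF-beta feedback, against 5.47% of all genes. For these lists the early medians were 0.09 and 0.13 and the late ones -0.34 and -0.35. For the histones no gene passed the test of late minus early, and 34 of 61 were lower late, against 12% of all genes, with a median of -0.29. The ribosomal proteins went from a median of -0.13 early to 0.06 late, with 6 genes toward higher and 1 toward lower.

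**Figure D5:**
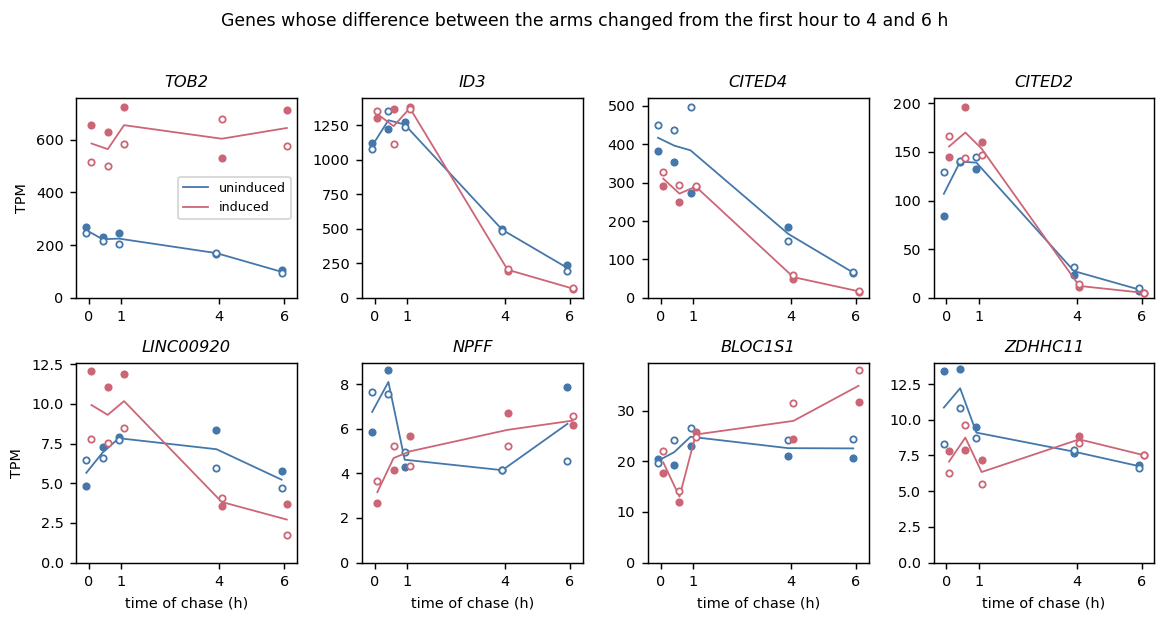
TPM of 8 genes whose difference between the arms changed from the first hour to 4 and 6 h, against time of chase on a linear scale. Filled circles are replicate 1, open circles replicate 2, and lines join the means. TOB2 stays at 499 to 725 TPM in induced cells, and ID3, CITED4 and CITED2 lie lower in induced than in uninduced cells from 4 h on.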

How the data were processed

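The authors' deposited table gave TPM for 48009 transcripts in 24 libraries, to 2 decimals. Per the submitters' processing notes, Trim Galore, Bowtie2, RSEM 1.3.0 and hg19 were used, with no role or order given, and strand and annotation were not given in the sources used here. Per the labels' protocols, total cytoplasmic RNA was extracted and labelled RNA was recovered with an antibody against bromouridine. The deposited TPM values were summed over transcripts of a symbol to 25341 genes, of which 13416 had a mean of at least 1. Reads per library were unknown, so no interval for counting error is given. limma 3.58.1 (R 4.3.3, variance trend) was fitted to log2(TPM + 1) with time and arm as terms on the 12 early libraries (8 residual degrees of freedom). Single times were contrasts of group means on the same libraries, and late values were contrasts over 24 libraries. P-values were adjusted over all genes tested by the Benjamini-Hochberg method. The fit was checked on simulated data with independent noise for each gene and library. The simulation held no shift shared by replicate numbers and no change of the library total, so it does not bear on those.

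Genes were named by a rule: TOB2, the 12 largest differences each way among called genes that averaged 5 TPM or more and had 1 sign at all 3 times, up to 4 each way for other contrasts, and up to 4 per list by p. The members, the 37 lists and the tests were chosen with earlier results of these data known, so the lists are described by counts and medians without a test. RefSeq spans and promoters (GRCh38.p14) were matched to 13365 genes and used for names, spans and sequences only. Alternatives were the pseudocount, filter, scaling, transcripts, replicate block, variance trend, all 24 libraries, and left-out libraries or times. Some genes that the rule names are not reported here.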

Additional observations from a re-analysis of the deposited data

Results flagged for a closer look

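The change of the difference between the arms from 0 to 1 h passed the test for MIR6075, at 3.68 (SE 0.393, adjusted p = 0.0331 with limma). Its induced libraries were listed at 0 at 0 h and at 9.86 and 8.20 TPM at 1 h, against 15.4 and 7.26 TPM and then 8.14 and 7.93 TPM in uninduced cells. The value rests on the pseudocount over 0 TPM: it ranged from 1.76 to 6.90 over 23 alternatives, and the call was lost in 9 of them.

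For 8 genes named by the rule the difference at 4 and 6 h differed from that of the first hour, by a contrast of both windows in 1 fit. Toward lower these were ID3 (-1.58), CITED4 (-1.31), LINC00920 (-1.23) and CITED2 (-1.19). CITED4, at an adjusted p of 0.000919 with limma, had 6 h means of 65.5 TPM without and 17.1 TPM with induction. Toward higher they were TOB2 (0.90), NPFF, a neuropeptide precursor (0.75), BLOC1S1, a subunit of lysosome-related organelle complexes (0.68), and ZDHHC11, of the palmitoyltransferase family (0.61). NPFF had an adjusted p of 0.0485 with limma and ZDHHC11 of 0.0387, but over 35 alternatives the calls were lost in 22 and 17.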

How the results depend on the processing

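The early counts of 270 higher and 241 lower genes kept their size with a pseudocount of 0.1 or 5, and the named differences of TOB2, CD55, TIGD5, ADAT3 and C9orf69 stayed past the threshold without each library and each time. Scaling moved the counts: higher and lower genes numbered 513 and 636 with quantile normalization, 400 and 670 with median-of-ratios scaling, and 1226 and 331 without RMRP, MIR6723 and RPPH1. Fitted by transcript, 50 transcripts were higher and 88 lower, 26 histone genes were lower by their most abundant transcript, and that of TST was reversed at 1.57 (adjusted p = 0.549 with limma). All 24 libraries gave 438 and 305. Without the 0, 0.5 or 1 h libraries the counts were 6 and 4, 6 and 3, and 6 and 5, with 0 histones each time, in fits with fewer samples. Without both libraries of high share, an alternative chosen after seeing the data, they were 505 and 143. The cause of these shifts was not tested.

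Counts at 0 h, 0.5 h, 1 h and for the change were 1, 0, 8 and 2 with a pseudocount of 0.1, and 1, 0 and 0 at 0 h, 0.5 h and for the change with 5. A filter of 5 TPM gave 1, 0 and 1 at the 3 times, and no filter 6, 14, 10 and 9 with the change. Quantile normalization gave 5 at 0.5 h and 2 for the change, median-of-ratios scaling 4, 2 and 4, the table without the 3 RNAs 4 and 5 at 0 and 0.5 h, transcripts 3 at 0.5 h and 2 for the change, and no variance trend 1 at 1 h and 2 for the change. Without both libraries of high share they were 12, 7, 17 and 7. The late count was 1262 with transcripts. Late minus early gave 1404 without the 3 RNAs, 359 with transcripts and 1287 without the libraries of high share. With 1 library left out in turn, counts ranged from 82 to 414 higher, 103 to 332 lower, 28 to 44 histones, 3 to 6 at 0 h, 0 to 7 at 0.5 h, 3 to 8 at 1 h, 1 to 7 for the change, 1440 to 2287 late and 486 to 1019 late minus early. Over 76 named genes, 261 of 912 such values lost their call and none was reversed. The 912 include values of TOB1, BTG1 and BTG2, which had no call to lose.

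With the replicate block the early counts were 1556 and 663, with 19 at 0.5 h, 4 at 1 h, 2 for the change and 1281 for late minus early. All 511 early calls of the main fit were kept with the block. Deviations of same-numbered libraries correlated at 0.0203, 0.135 and 0.142 between the arms at 0, 0.5 and 1 h. On the first principal component, the main axis of spread between libraries (24.2%), replicate 1 nonetheless lay above replicate 2 in each arm at each time. The replicate numbers thus share a shift that the main fit leaves in its error. The labels do not say that the numbers pair the samples, and the main fit does not use them. Depth was unknown, which limits what can be said of genes of low level.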
